A study of Mus musculus with 6 samples.

Results

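The nuclear-encoded genes of oxidative phosphorylation were described in bulk messenger RNA of the mouse nucleus accumbens core. They were chosen by gene symbol: the Nduf, Sdh, Uqcr, Cox and Atp5 subunit names together with Cyc1 and Cycs. The symbols picked out 82 of the 24532 genes in the deposited table. The rule used symbols only, but earlier results of these data were known when it was chosen. Of these, 35 belong to complex I, 4 to complex II, 9 to complex III, 16 to complex IV and 15 to complex V, with Cyc1 counted in complex III and Ndufa4 in complex IV. Cycs, the mobile carrier cytochrome c, stands on its own, and Atp5s and Atp5sl are named after the ATP synthase but are not subunits of it. The subunits encoded by mitochondrial DNA were not analysed here, since 0 transcripts of that genome were in the table used.

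The series compared 3 control with 3 ethanol samples from wild-type male mice, called adolescent in the labels with postnatal days 35 to 55 and no statement of the step to which that age applies. The labels describe contextual fear conditioning, then 6 intraperitoneal injections of 20% v/v ethanol within 6 h (1.8 g/kg for the first, 1.2 g/kg for the rest), extinction trials, and 27 days in which drinking was offered every other day, with tissue collected 24 h later. The treatment field names ethanol exposure for all 6 samples, so the grouping rests on titles, descriptions and column headers, and what the controls received by injection was not stated. Whether each sample came from its own animal was not stated either, and the p-values therefore speak of sample-to-sample spread that may be purely technical.

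Oxidative phosphorylation is the last stage of aerobic energy production. Complexes I and II take electrons from NADH and succinate, complex III passes them to cytochrome c, and complex IV hands them to oxygen. Complexes I, III and IV pump protons across the inner mitochondrial membrane, and complex V, the ATP synthase, uses the return flow to make ATP. Neurons depend on this supply for ion pumping and synaptic transmission, and most subunits are made from nuclear genes by short, abundant messenger RNAs. The transcription factors NRF1, GABP (an ETS-family factor), YY1 and the estrogen-related receptors are known regulators of these genes.

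Promoter sequence is RefSeq's (GRCm38.p6), and 69 of the 82 genes were matched to 75 windows of 300 bases around the annotated start. The 4 stretches printed here are the 120 bases before the start. They belong to the gene with the highest group difference (Sdha), the gene with the lowest (Cox7b) and the most abundant of the 82 (Cox6a1). The last is a complex II gene with both an NRF1 and an ETS match (Sdhd). Capitals mark matches, on either strand, to the NRF1 motif (GCGCA, any base, GCGC) or the ETS/GABP motif CCGGAAG.
Sdha, chr13:74350241-74350360, minus strand: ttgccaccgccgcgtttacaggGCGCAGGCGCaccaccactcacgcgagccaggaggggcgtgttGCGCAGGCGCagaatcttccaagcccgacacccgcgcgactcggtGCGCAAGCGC
Sdhd, chr9:50603850-50603969, minus strand: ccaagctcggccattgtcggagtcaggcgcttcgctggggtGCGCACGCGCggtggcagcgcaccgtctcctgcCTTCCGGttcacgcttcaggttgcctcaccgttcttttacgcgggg
Cox6a1, chr5:115348959-115349078, minus strand: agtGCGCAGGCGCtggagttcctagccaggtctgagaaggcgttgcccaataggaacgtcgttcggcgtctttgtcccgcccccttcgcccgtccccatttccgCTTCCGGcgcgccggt
Cox7b, chrX:106015580-106015699, plus strand: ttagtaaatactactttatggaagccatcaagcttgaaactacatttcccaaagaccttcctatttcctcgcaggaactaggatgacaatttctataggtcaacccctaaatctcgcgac
The Sdha stretch held 3 NRF1 matches, and those of Sdhd and Cox6a1 held 1 NRF1 and 1 ETS match each. In the Cox7b stretch there was neither. These 4 stretches do not stand for the other genes, and a relation of matches to the group difference was not tested. A match is a run of letters and not a measured binding site.

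Over the 75 windows of oxidative phosphorylation genes, the NRF1 motif was found in 18 (24%), against 8.62% of the windows of all tested genes. The ETS/GABP motif CCGGAAG was in 16 windows (21.3% against 14.9%). YY1 (AAGATGGC) was in 12 (16% against 3.79%) and the half-site of estrogen-related receptors (AAGGTCA) in 8 (10.7% against 3.43%). TATAAA stood in 8 windows (10.7% against 7.63%) and CCAAT in 33 (44% against 37.4%). Both strands were searched, no motif contains another, and 34 windows held none of the first 4 motifs. These shares are descriptions with no test.

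The genes were abundant in all 6 libraries. Levels between genes are given as FPKM, reads per kilobase of transcript and per 1e6 reads, and levels of one gene between libraries as CPM, reads per 1e6 of the scaled library. Of the 82 genes, 80 passed the filter on low counts, and Cox8b and Cox8c did not. The mean FPKM of the 80 had a median of 208 against 5.79 for all 15774 tested genes, and 73 of the 80 lay in the top 10%. Of the 82, Cox6a1, a nuclear subunit of cytochrome c oxidase, was highest at 859 FPKM, followed by its partner Cox8a at 813. The complex IV subunit Cox4i1, whose symbol was not among those chosen, lay above Cox6a1 in every library. Cox4i1 had 1051, 1148 and 1348 FPKM in control 1, 2 and 3 and 794, 1512 and 820 in ethanol 1, 2 and 3. Atp5b, the catalytic beta subunit of the ATP synthase, was highest of complex V at 694 FPKM. Uqcrh, the hinge protein of complex III, led that complex at 548, Ndufb8 led complex I at 461, and the iron-sulfur subunit Sdhb led complex II at 203. Cytochrome c (Cycs) stood at 45.0 FPKM. The lowest tested gene was Cox7b2, a paralog of Cox7b known from testis, at 0.449 FPKM, with 13, 0 and 29 reads in control 1, 2 and 3 and 20, 14 and 6 reads in ethanol 1, 2 and 3. Cox8c had 0 reads in every library, in which 3 reads stood for 0.045 to 0.084 CPM, and Cox8b reached 0.60 CPM at most.

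**Figure D1:**
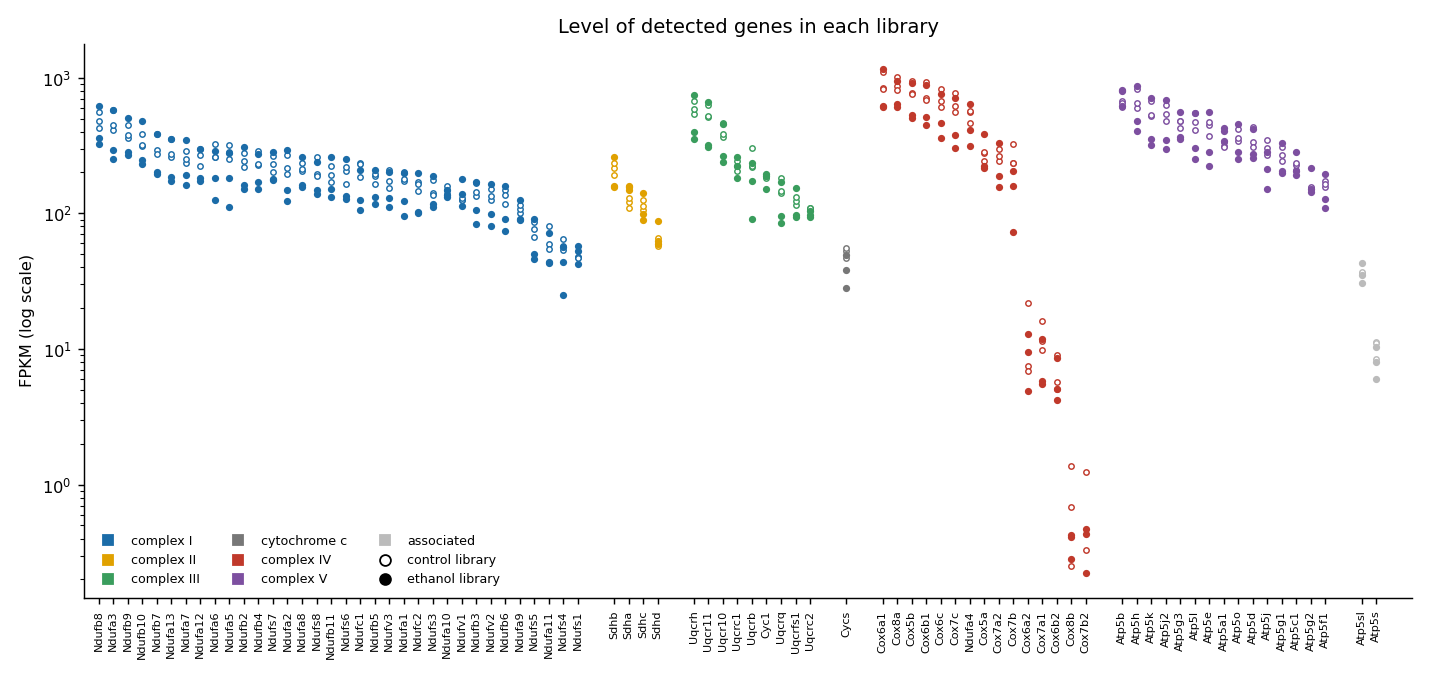
FPKM on a log axis of the oxidative phosphorylation genes with reads (1 complex I gene is not drawn), ordered by mean within its complex; open points are the 3 control libraries and filled points the 3 ethanol libraries. The means of most genes lie between 45.0 and 859 FPKM, the muscle- or testis-type paralogs of complex IV sit far below, and the libraries of both groups are interleaved; Cox8c and the 0 of Cox7b2 in control 2 cannot be drawn on this axis.

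Ethanol and control libraries were compared with edgeR's quasi-likelihood test over all genes. No gene passed a Benjamini-Hochberg adjusted p of 0.05 in this fit (0% higher and 0% lower, smallest adjusted p 0.412), and the smallest for an oxidative phosphorylation gene was 0.427. At an unadjusted p under 0.05, edgeR had 838 genes higher (5.31%) and 843 lower (5.34%), among them 2 oxidative phosphorylation genes higher (Sdha, Atp5a1) and 1 lower (Cox7b), which is 2.5% and 1.25% of the 80. DESeq2 called 51 genes higher (0.323%) and 93 lower (0.59%) and limma-voom 0, and neither called an oxidative phosphorylation gene. At an unadjusted p under 0.05 each of these tools also had 2 of the 80 higher (6.19% of all genes by DESeq2, 4.58% by limma-voom) and 1 lower (6% and 6.52%). Most point estimates lay below 0: 60 of 80 (75%) against 47.3% of all tested genes, with a median log2 fold change of -0.15 against 0.02. The estimates ran from -0.77 (Cox7b) to 0.49 (Sdha), and 57 of 80 were within 0.25 of 0, which is close to their median standard error of 0.25. Ethanol lay wholly below control for 2 of the 80 genes (Cox7b, Uqcrc2; 8.41% of all genes did) and wholly above for 3 (Sdha, Atp5a1, Ndufs1; 9.35%). In bulk tissue, fewer cells of a type and less RNA per cell cannot be told apart.

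The libraries differed more within the ethanol group than the group means differed from each other. As the deviation of log2(CPM + 0.5) from the mean of the 6 libraries, the median over the 80 genes was -0.03, 0.01 and 0.28 in control 1, 2 and 3, and -0.37, 0.43 and -0.34 in ethanol 1, 2 and 3. Ethanol 2 was therefore the highest library and ethanol 1 and 3 the lowest pair. Ethanol 2 held the highest of the 6 values for 59 of the 80 genes (24.1% of all genes), and control 3 for 17. For 63 of 80 genes ethanol 2 lay above all 3 controls (35.0% of all genes), while for 59 both ethanol 1 and ethanol 3 lay below all 3 (20.1%). The within-group SD of log2 CPM had a median of 0.19 in control and 0.49 in ethanol for these genes, against 0.16 and 0.28 for all genes. Summed over all 82 genes, their share of the reads was 1.95%, 2.02% and 2.31% in the controls and 1.602%, 2.496% and 1.637% in the ethanol libraries.

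Leaving out single ethanol libraries moved the counts. Without ethanol 2, 73 of 81 tested oxidative phosphorylation genes (90.1%) lay lower in ethanol against 51.4% of all genes, with a median of -0.47. In that fit 52 (64.2%) had an unadjusted p under 0.05 and lower values, against 10.2% of all genes, and edgeR called 1 of them after adjustment (Ndufc1, adjusted p 0.0465, -0.82) among 10 genes called lower (0.0628%). Without ethanol 1 and likewise without ethanol 3, 41 of 81 (50.6%) lay lower, against 47.4% and 46.5% of all genes. In these 2 fits edgeR gave 0 oxidative phosphorylation genes with lower values and an unadjusted p under 0.05, against 2.83% and 9.07% of all genes. Fits without 1 ethanol library compare 2 libraries with 3.

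**Figure D2:**
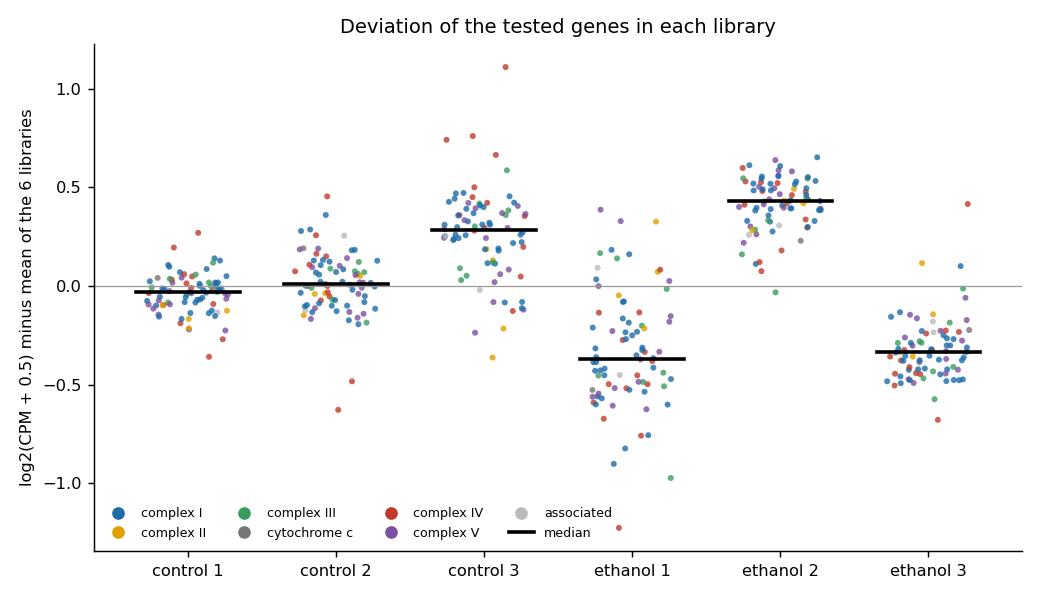
Deviation of log2(CPM + 0.5) from the mean of the 6 libraries (vertical axis) for each of the 80 tested genes in each library, coloured by complex; bars are medians over the genes. The medians are near 0 in control 1 and 2, at 0.28 in control 3 and 0.43 in ethanol 2, and at -0.37 and -0.34 in ethanol 1 and 3.

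Transcript length moved with the library differences. The 80 genes have short transcripts, with a median of 686.5 bases against 2838 for all tested genes, and 54 (67.5%) are under 1000 bases against 8.01%. Of these 54, 49 lay lower in ethanol with a median of -0.17, and of the other genes under 1000 bases 68.1% of 1209 did, with a median of -0.14. Of the 26 oxidative phosphorylation genes of 1000 bases or more, 11 lay lower with a median of 0.02, against 45.4% and 0.04 for 14485 other genes. In the shortest range, under 500 bases, all 14 oxidative phosphorylation genes lay lower (median -0.23), beside 79.0% of 181 other genes (median -0.32).

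The library pattern was shared by short genes outside oxidative phosphorylation. The other genes under 1000 bases had median deviations of -0.01, 0.04 and 0.20 in control 1, 2 and 3 and -0.32, 0.35 and -0.23 in ethanol 1, 2 and 3. The 54 short oxidative phosphorylation genes had -0.03, 0.02 and 0.32, then -0.42, 0.47 and -0.38. The 26 longer ones had -0.06, -0.04 and 0.10, then -0.06, 0.32 and -0.23. The 14485 other genes of 1000 bases or more had -0.009, -0.017 and -0.005, then 0.04, -0.05 and 0.03. These pooled values hid differences by length. In ethanol 1, 2 and 3, the 3491 other genes from 1000 to under 2000 bases had -0.09, 0.22 and -0.13. The 21 oxidative phosphorylation genes of that range had -0.05, 0.39 and -0.24. From 2000 to under 4000 bases, 6410 other genes had 0.07, -0.01 and 0.004. The 5 oxidative phosphorylation genes there had -0.08, 0.28 and -0.06. The 4584 other genes of 4000 bases or more had 0.15, -0.29 and 0.18. With a length trend removed in each library, 36 of 80 (45%) lay lower against 47.7% of all genes, and the median was 0.01. Removing GC and length trends together left 33 of 80 (41.2%) lower against 46.3% of all genes, with a median of 0.03. Each trend was fitted to these same libraries, so its removal takes out any difference that runs with length, whatever its source. The part of transcript length in the group comparison was not tested.

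**Figure D3:**
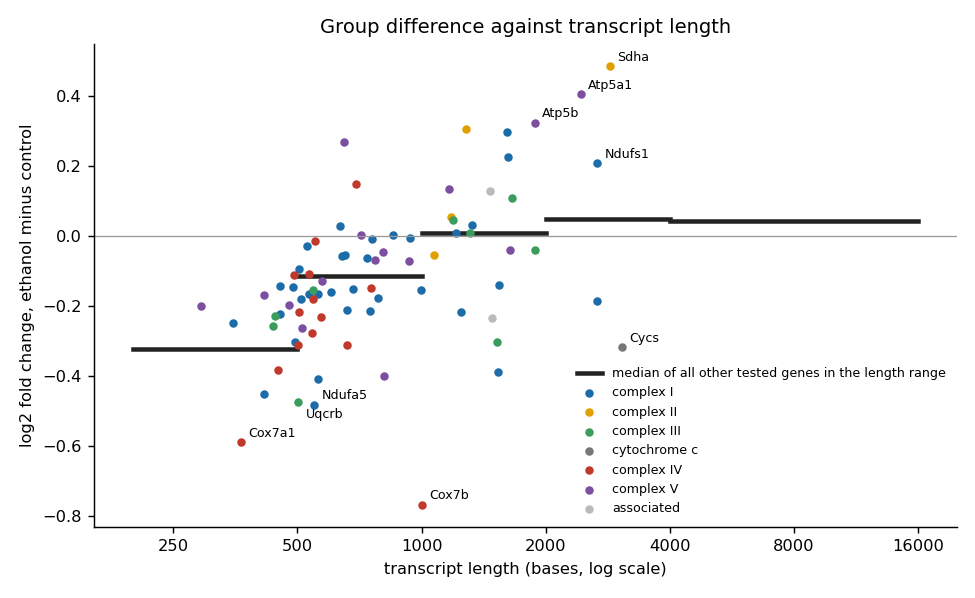
Log2 fold change, ethanol minus control (vertical axis), against transcript length in bases (log axis) for the 80 tested genes, coloured by complex; black bars are medians of all other tested genes in the same length range, and the shortest and longest ranges have no outer limit although their bars end. The short genes lie mostly below 0 along the bars, Sdha, Atp5a1, Atp5b and Ndufs1 lie above at greater length, and Cox7b at 1001 bases and Cycs at 3059 lie below.

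Complex I, the NADH dehydrogenase, had 28 of 35 genes lower in ethanol and a median log2 fold change of -0.15 (without ethanol 2, -0.48, and without ethanol 3, 0.0067). Its 7 core subunits, which carry the redox centres, had a median of -0.01 and 4 lower, and its 28 accessory subunits -0.16 and 24 lower. The core transcripts are the longer ones, with a median of 1540 bases against 618.5. Summed CPM of the complex was 6023, 6225 and 7439 in control 1, 2 and 3 and 5074, 8512 and 4865 in ethanol 1, 2 and 3, so ethanol held both the highest value and the lowest pair.

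Ndufs1, the large iron-sulfur subunit of complex I, stood at 153, 151 and 150.3 CPM in control and at 154, 197 and 174 in ethanol. All ethanol values lay above the controls, ethanol 1 by less than 1 CPM. The log2 fold change was 0.21 (SE 0.16, edgeR quasi-likelihood, Benjamini-Hochberg adjusted p 0.632). Ndufv1, which binds NADH and flavin, had 238, 232 and 247 CPM in control and 293, 366 and 219.9 in ethanol, the most positive estimate of the complex at 0.29 (SE 0.20, edgeR adjusted p 0.592). Ethanol 3 was its lowest library, so the groups overlapped.

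The lowest estimates of complex I were those of 2 small accessory subunits. Ndufa5, an accessory subunit of the peripheral arm, had 157, 178 and 203 CPM in control and 78.1, 188 and 118.7 in ethanol (log2 fold change -0.48, SE 0.28, edgeR adjusted p 0.553). Ndufc1, a small membrane-arm subunit, had 89.3, 113 and 114 CPM in control and 57.7, 110.2 and 62.9 in ethanol (-0.45, SE 0.25, edgeR adjusted p 0.530). In both, ethanol 1 and 3 lay below every control and ethanol 2 lay among them.

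Complex II, succinate dehydrogenase, also works in the citric acid cycle, and its 4 subunits were the group with the most positive median, 0.18, with 1 of 4 lower. Sdha, the flavin-bearing catalytic subunit, had 408, 427 and 368 CPM in control and 594, 576 and 513 in ethanol. All 3 ethanol libraries lay above all 3 controls, and the lowest ethanol value exceeded the highest control by more than the range of either group. The means were 400.9 ± 30.1 and 561 ± 42.4 CPM (SD, n = 3 each), and the log2 fold change was 0.49 (SE 0.15, unadjusted p 0.00932, edgeR adjusted p 0.427). Over the alternative settings the estimate ran from 0.40 to 0.55.

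The partners of Sdha in the same enzyme had other values. Sdhb, the iron-sulfur subunit, had 242, 269 and 296 CPM in control and 223, 351 and 202 in ethanol, with a log2 fold change of -0.06. Sdhc and Sdhd, the membrane anchors, had 0.05 and 0.30, and Sdhd stood at 89.7, 98.2 and 86.7 CPM in control and 106, 142 and 91.2 in ethanol. In Sdhb and Sdhd ethanol 2 was the highest library, in Sdha ethanol 1. Without ethanol 2 the median of the 4 genes was -0.05 in place of 0.18, and without ethanol 3 it was 0.33.

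Complex III, the cytochrome bc1 complex, had 6 of 9 genes lower and a median of -0.15 (without ethanol 2, -0.58, and without ethanol 3, -0.041). All 5 accessory subunits lay lower, with a median of -0.26, and the catalytic ones had a median of 0.03. Uqcrb, the quinone-binding protein of the complex, had 129.7, 130.05 and 179.7 CPM in control and 60.6, 150.6 and 105 in ethanol (-0.48, SE 0.30, edgeR adjusted p 0.571). Uqcrq, another small subunit, had 249.98, 259 and 326 CPM in control and 171, 329.7 and 176 in ethanol (-0.30). In both genes ethanol 1 and 3 were the lowest libraries and ethanol 2 was the highest for Uqcrq and stood between control 2 and control 3 for Uqcrb.

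The larger subunits of complex III varied less. Uqcrc1, a core protein, had 433, 391.7 and 474 CPM in control and 491, 543 and 365 in ethanol (0.11), Uqcrfs1, the Rieske iron-sulfur protein, had a log2 fold change of 0.01, and Cyc1, the cytochrome c1 haem protein, one of 0.05. Uqcrc2, the other core protein, stood at 239.3, 234.9 and 245.2 CPM in control and 233.9, 231.2 and 234.3 in ethanol. The ethanol values lay just below the controls, with a log2 fold change of -0.04 (SE 0.14, edgeR adjusted p 0.935). Its coefficient of variation over the 6 libraries was 2.12%, the lowest of the 80 genes, whose median was 24.7%.

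Cycs, cytochrome c, carries electrons from complex III to complex IV and also takes part in apoptosis. It had 168, 186 and 199.6 CPM in control and 113, 191.5 and 139.8 in ethanol (-0.32, SE 0.21, edgeR adjusted p 0.585). Ethanol 1 and 3 lay below every control and ethanol 2 among them. The Cycs transcript is long (3059 bases).

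Complex IV, cytochrome c oxidase, had 13 of 14 tested genes lower and the lowest median of the 5 complexes, -0.23 (without ethanol 2, -0.55, and without control 3, -0.069), with the shortest transcripts (median 544 bases). Summed CPM was 3625, 3693 and 4667 in control 1, 2 and 3 and 2633, 4871 and 2772 in ethanol 1, 2 and 3. Ethanol 2 was again above every control, and ethanol 1 and 3 were below them.

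Cox7b, a small X-linked subunit, had the lowest estimate of all 80 genes. It stood at 274.3, 271.9 and 385.7 CPM in control and 96.8, 257.8 and 192.3 in ethanol. Every ethanol library lay below every control, ethanol 2 by a margin smaller than the range of the controls. The means were 311 ± 65.0 and 182 ± 80.9 CPM (SD, n = 3 each) and the log2 fold change -0.77 (SE 0.32, unadjusted p 0.0365, edgeR adjusted p 0.450). The estimate was -1.11 without ethanol 2 and -0.46 without ethanol 1. The gene lies at chrX:106015700-106022450 (mm10), and its transcript of 1001 bases puts it outside the shortest ranges.

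Cox6a1, Cox5b and Cox5a of complex IV had the same highest and the same lowest library. Cox6a1 had 526, 513 and 690.4 CPM in control and 428, 779.7 and 397 in ethanol (-0.11), and Cox5b, a matrix-side subunit, had a log2 fold change of -0.23. Cox5a, the other matrix-side subunit, was the only complex IV gene with a positive estimate, 0.15, with 196, 224 and 231 CPM in control and 203.5, 339 and 179 in ethanol. In all 3 genes ethanol 2 was the highest library and ethanol 3 the lowest.

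Complex V, the ATP synthase, had 10 of 15 genes lower and a median of -0.07 (without ethanol 2, -0.34, and without ethanol 3, 0.06). By its parts, the F1 head that makes ATP, with Atp5c1, Atp5d and Atp5e counted in it, had 2 of 5 lower (median 0.13). The c-ring had 1 of 3 lower (0.00), the peripheral stalk 4 of 4 (-0.10) and the other membrane subunits 3 of 3 (-0.20). Atp5a1, the alpha subunit of the head, had 893, 949.99 and 883 CPM in control and 1362, 1248 and 998.7 in ethanol. All ethanol values lay above the controls, and the 3 ethanol libraries spread more widely than the controls. The means were 909 ± 36.1 and 1203 ± 186 CPM (SD, n = 3 each), and the log2 fold change was 0.40 (SE 0.16, unadjusted p 0.0309, edgeR adjusted p 0.448).

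Atp5b, the beta subunit that pairs with alpha, had 1346, 1456 and 1448 CPM in control and 1978, 1941 and 1397 in ethanol (0.32, SE 0.17, edgeR adjusted p 0.514). Ethanol 1 and 2 stood above every control and ethanol 3 among them. At the other end, Atp5j, the coupling factor of the peripheral stalk, had 254, 281 and 331 CPM in control and 162, 287 and 206 in ethanol (-0.40, SE 0.22, edgeR adjusted p 0.528). Atp5l, subunit g of the membrane part, had a log2 fold change of -0.26. For Atp5j the 2 low ethanol libraries were again ethanol 1 and 3. The named associates Atp5s and Atp5sl had -0.24 and 0.13.

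**Figure D4:**
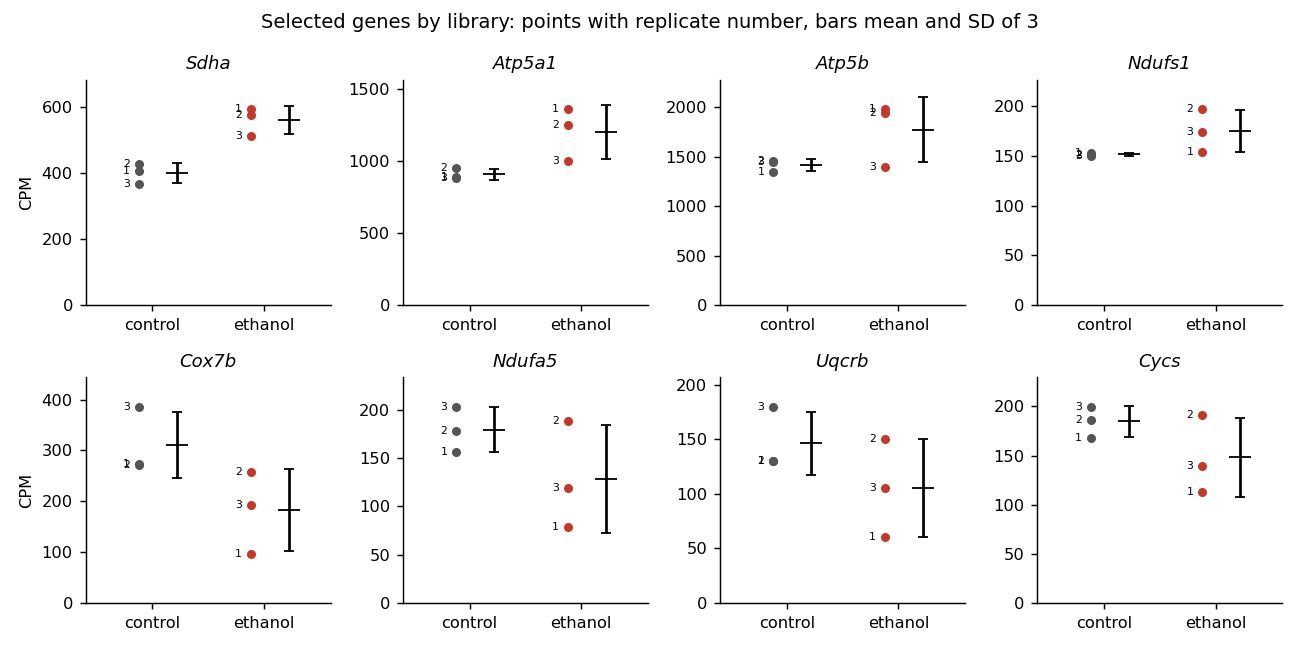
CPM (vertical axes from 0) of 8 genes in each library, with the replicate number beside each point and the mean and SD of 3 beside each group. Sdha, Atp5a1 and Ndufs1 have all ethanol points above control and Cox7b all below, while in Atp5b, Ndufa5, Uqcrb and Cycs the groups overlap.

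The make-up of the pool, as the percent of the summed FPKM of complexes I to V, differed less between libraries than the level did. Complex I took 32.8%, 32.9% and 33.0% in control and 32.1%, 33.3% and 32.3% in ethanol. Complex IV took 26.8%, 26.3% and 27.7% in control and 24.1%, 25.9% and 25.7% in ethanol, and complex V 26.4%, 27.0% and 25.9% against 29.4%, 27.4% and 28.1%. Ethanol thus lay below control for complex IV and above it for complex V in every library, by a few percentage points at most. Complex III took 11.6%, 11.4% and 11.4% in control and 11.2%, 11.05% and 11.1% in ethanol, again without overlap, and complex II 2.04% to 2.41% against 2.41% to 3.17%. The shares are parts of 1 sum and do not move independently. Within complex V, Atp5b had 612, 669 and 652 FPKM in control and 798, 816 and 618 in ethanol. Atp5a1 had 314, 337 and 307 FPKM in control and 425, 406 and 342 in ethanol. In all, 10 of the 15 complex V genes had lower estimates, and its share without Atp5a1 and Atp5b was not examined. The complexes differ in transcript length, from a median of 544 bases in complex IV to 1232 in complex II, and the part of length in these shares was not tested.

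Paralogous subunits fill the same position of a complex, and their balance was compared as a share of FPKM. Over 8 shares, no exact permutation test (two-sided, 3 against 3) could give a p below 0.1. Cox7a1, the muscle-type form, took 4.48%, 3.62% and 5.13% of the Cox7a1 and Cox7a2 sum in control and 3.57%, 3.44% and 2.84% in ethanol. All ethanol values lay below control (exact permutation p 0.1, Benjamini-Hochberg adjusted p 0.4), and Cox7a1 itself was low, at 2.44 to 6.97 CPM. Atp5g2, one of 3 genes for the same c-ring protein, took 18.1%, 17.3% and 16.5% in control and 21.3%, 19.6% and 20.3% in ethanol. All ethanol shares lay above control (exact permutation p 0.1, Benjamini-Hochberg adjusted p 0.4).

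The other 6 shares overlapped between groups, with exact permutation p from 0.4 to 0.9. Atp5g3 gave most of the c-ring transcripts, 52.0% ± 2.57 in control and 50.7% ± 0.40 in ethanol (SD, n = 3 each), and Atp5g1 30.7% ± 2.62 and 28.9% ± 0.83. Cox6a2, the heart- and muscle-type partner of Cox6a1, took 1.95% in control 3 and 2.05% in ethanol 3 but 0.80% to 0.88% in the other 4 libraries. Cox6b2 and Cox8b took under 1.29% and under 0.135% of their sums.

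Other genes of the pathway were read from fixed lists, each without an adjusted p under 0.05 by edgeR. Of 9 further subunits, 6 lay lower (median -0.09), from -0.40 for Usmg5, a small ATP synthase subunit, to 0.25 for Cox4i2, with Cox4i1 at -0.07. Of 47 assembly factors, 27 lay lower (median -0.04), from -0.66 for Ndufaf4, a complex I assembly factor, to 0.79 for Taco1, a translation activator of a mitochondrial oxidase subunit. Of 19 regulators of mitochondrial biogenesis, 13 lay lower (median -0.02), with the coactivator Ppargc1a at -0.02, Nrf1 at -0.08 and Tfam, the packaging factor of mitochondrial DNA, at -0.15. The list ran from -0.49 for Sirt1 to 0.75 for Ppargc1b.

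The enzymes upstream had more positive estimates. All 16 glycolytic genes lay higher in ethanol (median 0.29), beside 8312 of all 15774 tested genes. Their estimates ran from 0.07 for Ldhb to 0.49 for Tpi1. By edgeR 3 of the 16 had an unadjusted p under 0.05, against 5.31% of all genes with higher values. Median transcript length was 2132 bases for the glycolytic list and 2192.5 for the citric acid cycle list. For 6 of the 16, every ethanol library lay above every control, against 9.35% of all genes. Of 14 citric acid cycle genes 10 lay higher (median 0.08), from -0.11 for Sucla2 to 0.36 for Ogdh. Median deviations of the glycolytic list were -0.09, -0.15 and -0.11 in control and 0.30, 0.19 and -0.09 in ethanol, an order unlike that of the oxidative phosphorylation genes.

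Lists for machinery that makes or imports mitochondrial proteins were also highest in ethanol 2 and lower in ethanol 1 and 3 than in any control. Of 78 mitochondrial ribosomal protein genes 47 lay lower (median -0.05), from -0.47 for Mrpl47 to 0.28 for Mrpl9, with ethanol 2 at a median deviation of 0.37 and ethanol 1 and 3 at -0.23 and -0.25. Of 28 import genes 14 lay lower (median -0.01), from -0.45 for Timm21 to 0.39 for Tomm20, with deviations of 0.34 in ethanol 2 and -0.20 and -0.22 in ethanol 1 and 3. Cytosolic ribosomal proteins, which lie outside mitochondria and also have short transcripts (median 714 bases), had 40 of 80 lower (median 0.00). Their estimates ran from -0.55 for Rps27 to 0.51 for Rpl3. Rps27 was uneven within both groups, with 9.39, 351 and 9.38 CPM in control and 4.32, 8.64 and 240 in ethanol (SE 1.56). Median deviations of the cytosolic ribosomal list were 0.56 in ethanol 2 and -0.34 and -0.30 in ethanol 1 and 3.

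**Figure D5:**
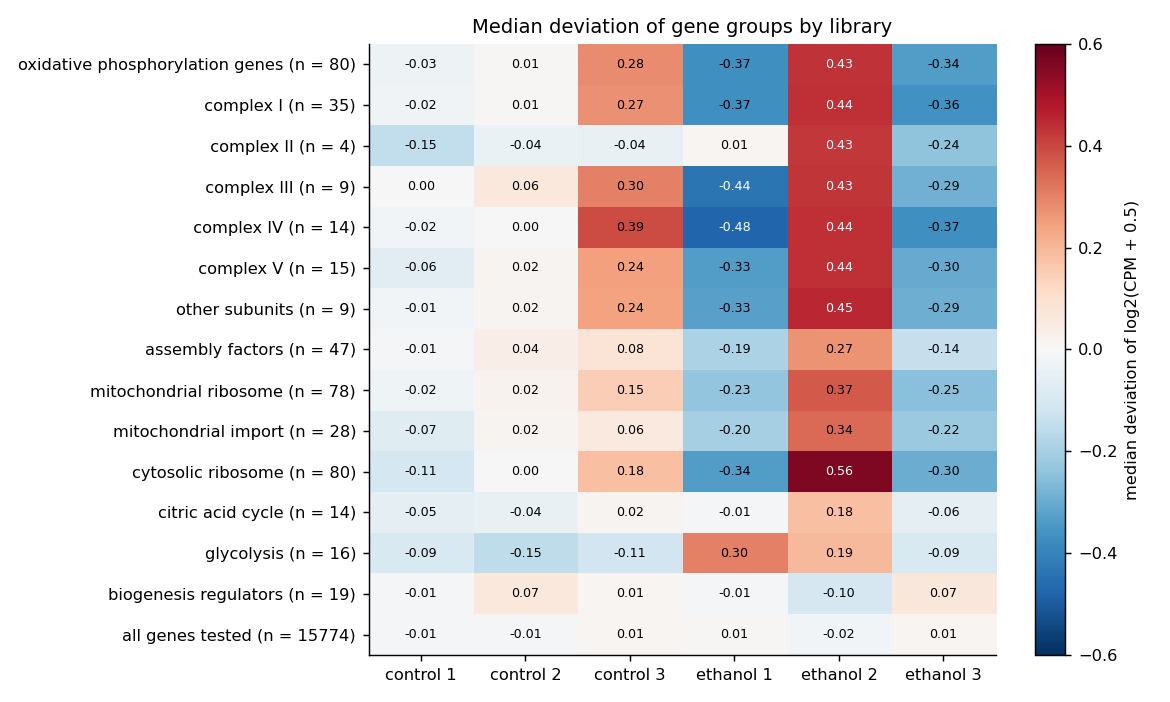
Median deviation of log2(CPM + 0.5) from the mean of the 6 libraries (colour and number) for each gene list in rows and each library in columns. Ethanol 2 is high and ethanol 1 and 3 low for complexes I, III, IV and V and the ribosomal lists, whereas glycolysis is highest in ethanol 1 and all tested genes stay between -0.02 and 0.01.

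Markers of cell types also moved between libraries. Drd1 and Drd2, receptors that define medium spiny neurons of the accumbens, were present in every library at 26.9 to 58.8 and 20.9 to 55.1 CPM. All 14 medium spiny markers were above 0 in every library, and their summed level was 2033 to 2448 CPM in control and 2252 to 4108 in ethanol, with the highest value in ethanol 2. The 10 cortical excitatory markers summed to 189 to 464 CPM in control and 86.6 to 192 in ethanol, with Emx1 at 0 in some libraries. The 10 choroid plexus markers summed to 423 CPM in control 3, against 19.1 to 25.8 in the other 5 libraries, with Aqp1, Folr1, Slc4a5 and Kcnj13 at 0 in some. The 10 meningeal fibroblast markers summed to 58.8 to 104 CPM in control and 46.0 to 53.9 in ethanol, without overlap. All 10 had lower estimates (median -0.61), as did 8 of 9 tested cortical excitatory markers (-0.55) and 8 of 10 oligodendrocyte markers (-0.13). At an unadjusted p under 0.05, edgeR had 4, 4 and 3 genes of those lists lower (5.34% of all genes). In ethanol 13 of 14 medium spiny markers (median 0.42), 9 of 10 astrocyte markers (0.29) and 8 of 10 microglial markers (0.27) lay higher. At the same threshold 4, 2 and 1 of these were higher (5.31% of all genes). The 10 astrocyte markers summed to 2056 to 2435 against 2423 to 3097 CPM, the 10 oligodendrocyte markers to 20509 to 24251 against 17117 to 22361, and the 10 microglial markers to 497 to 635 against 514 to 849. The 10 endothelial markers summed to 245 to 295 against 251 to 265 CPM, and the 6 parvalbumin interneuron markers to 490 to 761 against 516 to 586. The part of cell make-up in the results on oxidative phosphorylation genes was not tested. Without control 3 the median log2 fold change of the 80 genes was -0.03.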

How the data were processed

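Messenger RNA from 6 samples was used, 3 control and 3 ethanol. The authors deposited 1 table that gives RefSeq transcripts as rows and, as columns, an estimated count and FPKM of every sample, per the file headers. Build mm10 and the tool bcl2fastq are named in the submitters' processing notes; the aligner and the program that counted are not given in the sources that were used here. In each library 100% of the deposited counts equalled FPKM times transcript length times library size, rounded up, so they are estimated counts: they may misplace reads among paralogs, pseudogenes, isoforms or genes that overlap, and use of strand was not stated.

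Counts of 36780 transcripts were summed by gene identifier to 24532 genes (10 identifiers carried 2 symbols). Genes kept by filterByExpr (minimum count 10), 15774, were scaled by TMM and compared with the two-sided quasi-likelihood test of edgeR 4.0.16 in R 4.3.3, group being the sole term, with Benjamini-Hochberg adjustment over all genes and a threshold of 0.05. The standard error is the size of the log2 fold change over the square root of F. Length is that of the transcript with most reads. Deposited FPKM values served for levels between genes and for shares, which were compared by exact permutation with scipy 1.17.1. Depth was 35898026 to 67399599 estimated reads per library, and intervals of counting error were not needed for most genes, since 75 of the 82 had a median of at least 1000 reads. Limits set by 3 reads cover counting error only.

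The genes named were, in each complex, the 2 lowest and the highest log2 fold change, and the most abundant and the lowest detected genes. Isoform sets, core or catalytic subunits and the extremes of each pathway list were also named. Others were named after their values were seen (Sdhd, Uqcrc2, Uqcrh, Ndufb8, Cox7b2, Atp5s, Atp5sl, Cox4i1 and the regulators Ppargc1a, Nrf1 and Tfam). A gene that the rule also takes is not reported here. The members and lists were chosen with earlier results of these data known. Alternatives were DESeq2 1.42.0, limma-voom (limma 3.58.1), other scalings and filters, a replicate block, the most abundant transcript, removal of length or GC and length trends, and fits without each library; the GC and length trend was added after seeing the data. On 3 simulated sets, edgeR recovered 86.9% of 4-fold, 34.8% of 2-fold and 5.47% of 1.5-fold changes. Those sets drew every gene independently, with the same dispersion in both groups. They lacked the shifts shared by many genes and the wider ethanol spread of the real libraries, so recovery in the real data may differ. Figures were drawn with matplotlib 3.10.9.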

Additional observations from a re-analysis of the deposited data

How the results depend on the processing

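No call of an oxidative phosphorylation gene by adjusted p was made under any setting that used all 6 libraries. The median log2 fold change of these genes, -0.15, lay between -0.23 and -0.14 under other scalings, filters, tools and counting of the most abundant transcript, was 0.01 with the length trend removed and 0.03 with GC and length trends removed, and ran from -0.47 to 0.00 when 1 library was left out. Genes lower in ethanol numbered 60, but 36 with the length trend and 33 with GC and length trends removed, and 41 to 73 with 1 library left out. Those with an unadjusted p under 0.05 and lower, 1, became 3 with the replicate block (6.26% of all genes), 0 with the most abundant transcript (3.78%), 3 with the length trend (7.94%) and 4 with GC and length trends removed (8.72%), and 0 to 52 with 1 library left out. Those higher, 2, became 1 with the replicate block (4.17% of all genes), 7 with the length trend (9.07%) and 10 with GC and length trends removed (11%), and 0 to 6 with 1 library left out (6.62% of all genes for the 6, without ethanol 3). Over all genes, DESeq2 called 51 higher and 93 lower against 0 and 0, and leaving out 1 library gave 0 to 201 higher and 0 to 10 lower, both largest without ethanol 2, with 0 to 1 oxidative phosphorylation gene called. Under the same omission the median of complex I ran from -0.48 to 0.0067, of complex II from -0.047 to 0.33, of complex III from -0.58 to -0.041, of complex IV from -0.55 to -0.069 and of complex V from -0.34 to 0.06. The log2 fold changes of Cox7c and Atp5s, whose size exceeded their standard error, turned to 0.055 and 0.021 with GC and length trends removed; sign changes of genes within 1 standard error of 0 were not counted. Shares of complexes by CPM in place of FPKM kept their sign, with the difference of complex V at 3.25 in place of 1.84 percentage points. The replicate numbers are shared only as numbers: same-numbered libraries had correlations of 0.15, -0.03 and -0.02 in their deviations from the group means, and the block gave a median of -0.20. Causes of these shifts were not tested beyond the construction of each setting. Depth limits only the complex IV paralogs Cox7b2, Cox8b and Cox8c.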

Other observations

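Cox6a2 was among the oxidative phosphorylation genes outside the common library order, in which ethanol 2 was highest (59 of the 80). It had 5.80, 5.28 and 16.95 CPM in control 1, 2 and 3 and 4.27, 8.01 and 10.3 in ethanol 1, 2 and 3, so control 3 and ethanol 3 were its highest libraries, and its log2 fold change of -0.31 ran from -0.60 to 0.44 over the alternatives. Pvalb, a calcium-binding protein of fast-spiking interneurons, had 118, 174 and 332 CPM in control and 121, 237 and 123 in ethanol. Both genes were highest in control 3, but in ethanol 3 Pvalb was among its lowest values and Cox6a2 was not. Over the 6 parvalbumin interneuron markers the median deviation in control 3 was -0.006, so Pvalb does not stand for that list. Of the 6 markers 3 had lower estimates, and Pvalb had the lowest (-0.38). Cox6a2 and Pvalb were singled out after their values were seen, and no test was made.

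Ndufa10, an accessory subunit of complex I that belongs to a nucleoside kinase family, came next to Uqcrc2 in evenness, with a coefficient of variation of 7.45% over the 6 libraries. The most uneven detected genes were the paralogs Cox7b2 at 87.5% and Cox6a2 at 55.7%, followed by Cox7b at 39.0%. Over all tested genes the median was 20.5%.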
